A study of Mus musculus and synthetic construct with 32 samples.

Results

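The antisense introns described here are the introns of mouse genes read on the strand opposite to the gene, whose normalized count averaged 10 or more in the table at hand. They were chosen on that mean count and nothing else, in 4 deposited tables of mouse germline tissue that list every gene's introns and exons separately for the sense and the antisense strand. Such antisense introns numbered 4180 of 16899 listed in P12 testis, 3301 of 15373 in P0 ovary, 4688 of 16268 in P8 testis and 4430 of 19164 in the m6A immunoprecipitation data. In all, 6680 of 19961 antisense introns reached this floor in at least 1 table and 1888 reached it in all 4. The intron entry of a gene sums all of its introns, so 1 antisense value belongs to each gene.

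The study compared mice that lack Ythdc2, a YTH-domain RNA helicase that germ cells need for meiosis, with heterozygous (+/-) or wild-type (+/+) animals on a C57BL/6J background. Total RNA was sequenced from P12 testis (3 Ythdc2-/- and 3 Ythdc2+/- libraries), P8 testis (2 Ythdc2-/-, 1 Ythdc2+/- and 1 Ythdc2+/+) and P0 ovary (2 Ythdc2-/- and 2 Ythdc2+/-). Knockout mice came from 2 lines, 1 with exon 7 deleted and 1 with stop codons knocked into exon 7, and the labels do not say which line each library came from. For the m6A libraries, testis RNA with a poly(A) tail was broken into fragments and immunoprecipitated. The wild-type P8 comparison among them set 1 immunoprecipitate against 1 input. That table's mean count runs over all of its 10 libraries, which also hold P12 heterozygote (2 and 2) and P20 wild-type (2 and 2) testes. The tables hold the authors' comparisons and no value per library, so no spread between libraries can be given. Nothing in the labels says that the libraries of a group came from separate animals, so the p-values measure at most the spread between libraries. Each P8 testis control is 1 library and the P8 m6A comparison sets 1 against 1. The spread within those groups was therefore not measured. All samples are bulk tissue, in which fewer cells of a type and less RNA per cell cannot be told apart.

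Antisense transcription is common in mammalian genomes. It arises from promoters that fire in both directions, from neighbouring genes that run into each other, and from long non-coding RNAs that start inside or beyond a gene and cross it on the other strand. Some antisense RNAs silence genes in cis, as Airn does across Igf2r and Kcnq1ot1 within Kcnq1 at imprinted loci, and as Tsix does across Xist on the X chromosome. Germ cells transcribe an unusually wide part of the genome. YTHDC2 binds N6-methyladenosine (m6A), a methyl mark on RNA that the immunoprecipitation enriches. The total RNA libraries were made with a stranded kit after removal of ribosomal RNA, so unspliced and non-polyadenylated RNA was retained.

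Antisense introns were a small share of all intron counts. They made up 3.61% of the summed intron count in P12 testis, 2.92% in P8 testis, 3.05% in P0 ovary and 11.3% for m6A. Exons carried less, with 0.611%, 0.743%, 1.73% and 0.489% of their summed count on the antisense strand. In the 500 genes with the highest exon counts the median antisense exon share was between 0.0280% and 0.105% in the 4 tables. Summed over all features, mean counts came to 3.71e+07 (P12 testis), 4.22e+07 (P8 testis), 2.38e+07 (P0 ovary) and 2.49e+07 (m6A). Germ cell and Sertoli cell markers reached the floor at 5 of 5 each in every table, including the ovary. Pregranulosa markers did so at 5 of 5 in ovary (sum 3832) and at 4 of 5 in P12 testis (5978), P8 testis (8344) and m6A (7062). Leydig cell markers reached it at 4 of 5 in each total RNA table and 5 of 5 for m6A. Reaching the floor in these panels does therefore not tell testis from ovary. In ovary the oocyte markers reached it at 5 of 5 and summed to 283. Oocyte markers also reached the floor at 4 of 5 in each testis table, summing to 110 to 159, and spermatid markers at 2 of 4 in ovary (sum 97.2), 3 of 4 in P8 testis (296), 4 of 4 for m6A (411) and 0 of 4 in P12 testis (10.4).

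The tables did not count overlapping genes alike. Among genes that lie wholly inside a protein-coding gene of the other strand with an intron count of at least 100, the ovary data listed the antisense intron without the sense intron for 194 of 307 and the sense without the antisense intron for 1. The P12 testis table did the reverse, with 3 and 153 of 320, as did the P8 testis table (2 and 161 of 335) and the m6A table (0 and 150 of 242). Antisense levels under an annotated opposite gene can therefore not be told apart from this difference in counting when the ovary is set beside the other tables. Each table was also normalized on its own, so counts set side by side across tables are not on one scale, and no test was made between tables. Comparisons of genotypes stay within a table. In P8 testis the heterozygous library stood apart in spermatid transcripts: the authors' deposited table gave log2 folds of heterozygote over wild type of 0.51 for Prm1 (adjusted p = 0.0226) and 0.74 for Prm2 (adjusted p = 0.000147). Tnp1 stood at 0.35 and Acrv1, below the floor, at 0.05, neither called, and the part of this difference in the P8 results was not tested. The protamine genes mark cells far older than P8 testis should hold. The authors' deposited folds set the knockout against each P8 control separately.

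The promoters of 7 annotated antisense RNAs are printed because they show where annotated antisense RNAs start at the genes the results turn on. They were chosen after the values were seen: 6 belong to the single annotated non-coding gene that overlaps, on the opposite strand, a gene whose antisense introns were called between genotypes at a mean of at least 50, and the remaining one, Airn, overlaps the gene with the highest antisense count in the ovary. Each line runs 5′ to 3′ on the RNA's own strand from 250 bases before to 50 after the RefSeq start (GRCm38.p6), with CG dinucleotides in capitals. CG reads the same on both strands.
Gm32926, antisense to Arfgef3: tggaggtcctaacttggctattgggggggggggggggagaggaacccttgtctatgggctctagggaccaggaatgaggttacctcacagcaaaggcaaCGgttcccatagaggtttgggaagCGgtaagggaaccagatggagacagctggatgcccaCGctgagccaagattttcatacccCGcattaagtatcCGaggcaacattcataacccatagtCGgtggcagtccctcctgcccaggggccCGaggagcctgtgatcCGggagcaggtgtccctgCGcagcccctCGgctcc
Igf1os, antisense to Igf1: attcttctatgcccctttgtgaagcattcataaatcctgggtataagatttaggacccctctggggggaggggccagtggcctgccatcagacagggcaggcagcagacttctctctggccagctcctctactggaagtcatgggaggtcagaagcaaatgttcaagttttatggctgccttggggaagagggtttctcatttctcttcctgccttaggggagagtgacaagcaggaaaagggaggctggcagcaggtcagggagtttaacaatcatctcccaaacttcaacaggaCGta
Gm10644, antisense to Adgrl1: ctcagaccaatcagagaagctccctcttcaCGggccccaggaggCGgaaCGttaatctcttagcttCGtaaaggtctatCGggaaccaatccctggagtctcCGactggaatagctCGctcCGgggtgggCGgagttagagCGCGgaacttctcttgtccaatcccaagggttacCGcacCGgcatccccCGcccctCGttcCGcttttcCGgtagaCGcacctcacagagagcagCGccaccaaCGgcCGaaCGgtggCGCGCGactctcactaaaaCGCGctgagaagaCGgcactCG
Gm36601, antisense to Syt1: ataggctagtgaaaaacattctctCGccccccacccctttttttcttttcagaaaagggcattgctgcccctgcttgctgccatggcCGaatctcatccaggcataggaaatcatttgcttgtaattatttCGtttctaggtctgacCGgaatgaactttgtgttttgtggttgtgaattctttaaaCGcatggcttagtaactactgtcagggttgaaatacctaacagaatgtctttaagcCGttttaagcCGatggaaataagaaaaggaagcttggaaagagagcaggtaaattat
Gm20275, antisense to Myo9a: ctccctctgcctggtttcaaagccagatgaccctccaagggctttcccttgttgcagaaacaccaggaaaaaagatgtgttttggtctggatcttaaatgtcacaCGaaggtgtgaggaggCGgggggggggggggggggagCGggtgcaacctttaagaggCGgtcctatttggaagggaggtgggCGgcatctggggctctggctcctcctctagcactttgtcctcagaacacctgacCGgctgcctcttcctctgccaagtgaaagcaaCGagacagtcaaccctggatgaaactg
Gm16271, antisense to Stab2: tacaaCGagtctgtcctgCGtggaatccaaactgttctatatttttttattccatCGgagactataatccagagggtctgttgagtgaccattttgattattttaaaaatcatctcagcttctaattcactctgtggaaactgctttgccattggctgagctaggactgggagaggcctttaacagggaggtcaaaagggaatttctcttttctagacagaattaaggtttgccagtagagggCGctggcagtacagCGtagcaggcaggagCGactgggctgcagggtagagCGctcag
Airn, antisense to Igf2r: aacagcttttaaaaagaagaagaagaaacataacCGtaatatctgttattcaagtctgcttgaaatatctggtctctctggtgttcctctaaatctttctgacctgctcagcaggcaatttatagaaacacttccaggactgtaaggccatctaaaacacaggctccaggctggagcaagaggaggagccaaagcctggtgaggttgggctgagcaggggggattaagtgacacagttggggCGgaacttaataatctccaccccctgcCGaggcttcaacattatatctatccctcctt

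These windows lie at chr10:18743221-18743520 (plus strand, Gm32926), chr10:87863344-87863643 (minus, Igf1os), chr8:83955284-83955583 (minus, Gm10644), chr10:108455506-108455805 (plus, Gm36601), chr9:59940989-59941288 (minus, Gm20275), chr10:86971891-86972190 (plus, Gm16271) and chr17:12741061-12741360 (plus, Airn). Their starts fall into 3 arrangements. Gm32926 started 0.287 kb inside the 5′ end of Arfgef3 and ran outward, so that it covered only 0.185% of Arfgef3. Igf1os, Gm16271 and Airn started within their host and ran toward its 5′ end, covering 5.13 kb (6.51% of Igf1), 35.9 kb (21.5% of Stab2) and 28.4 kb (32.5% of Igf2r). Gm10644, Gm20275 and Gm36601 started beyond the host's 3′ end, by 13.4 kb, 12.2 kb and 41.9 kb, and covered its last 9.63 kb (23.0% of Adgrl1), 103 kb (57.6% of Myo9a) and 14.4 kb (2.81% of Syt1). Because an antisense entry sums all introns of a gene, it cannot be said whether its counts lie inside these overlaps, and apart from Airn none of these RNAs had an exon entry used here. Gm10644 held 29 CG, a number that 12.9% of the 32851 RefSeq promoters of this length reached, and Gm32926 held 10 (43.5%). Igf1os held 1 (94.6%), Airn 3 (76.7%) and Gm36601, Gm20275 and Gm16271 7 each (52.1%), against a median of 7 over all promoters. The letters CCAAT, searched on both strands, were found in Gm32926, Gm10644 and Gm16271, and in 37.4% of all promoters.

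Most antisense introns were weakly covered. The median mean count was 24.9 in P12 testis, 26.9 in P8 testis, 26.0 in ovary and 22.8 for m6A. A mean of at least 100 was reached by 504, 664, 473 and 396 antisense introns, and of at least 1000 by 26, 34, 25 and 9. Many introns sat at the threshold: 276 (P12), 246 (P8), 201 (ovary) and 308 (m6A) lay between 10 and 11, and 287, 264, 237 and 396 between 9 and 10. Antisense counts were a median 12.2% of the intron's count on both strands in P12 testis, 10.1% in P8 testis, 17.4% in ovary and 23.7% for m6A. The choice of introns by their antisense count sets these medians: over all introns with at least 10 counts on both strands together they were 1.41%, 1.23%, 0.950% and 5.78%, with the ovary the lowest. In 888 (21.2%), 985 (21.0%), 1023 (31.0%) and 1076 (24.3%) of them the antisense strand held more than the gene's own strand. These shares count as wholly antisense the introns whose sense strand was not listed, 45 in P12 testis, 63 in P8 testis and 323 in ovary. Among introns with both strands listed the antisense strand held more in 843 of 4135 (20.4%) in P12 testis, 922 of 4625 (19.9%) in P8 testis and 700 of 2978 (23.5%) in ovary. The testis stages shared most of their antisense introns, 3856, which is 92.2% of the P12 set and 82.3% of the P8 set. P12 testis and ovary shared 2448 (58.6% and 74.2%), and the ovary table held 509 (15.4%) found at the floor in no other table.

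Where an annotated gene overlapped the host on the opposite strand, antisense introns reached the floor more often. Hosts overlapped by a protein-coding gene had 41.7% of listed introns at the floor in P12 testis, 47.9% in P8 testis, 41.7% in ovary and 34.9% for m6A. For an overlapping non-coding gene these shares were 37.4%, 41.2%, 28.3% and 44.9%. Hosts with a converging neighbour, tail to tail within 10 kb, reached 29.5%, 33.2%, 22.0% and 22.6%. Diverging neighbours, head to head within 10 kb, gave 14.9%, 17.4%, 10.4% and 15.4%, beside 14.0%, 17.1%, 11.0% and 14.2% of genes with no opposite-strand gene within 10 kb. Of the P12 testis introns at the floor, 698 had no annotated opposite-strand gene within 10 kb, and 845 could not be placed because the strand of the host was not known.

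**Figure D1:**
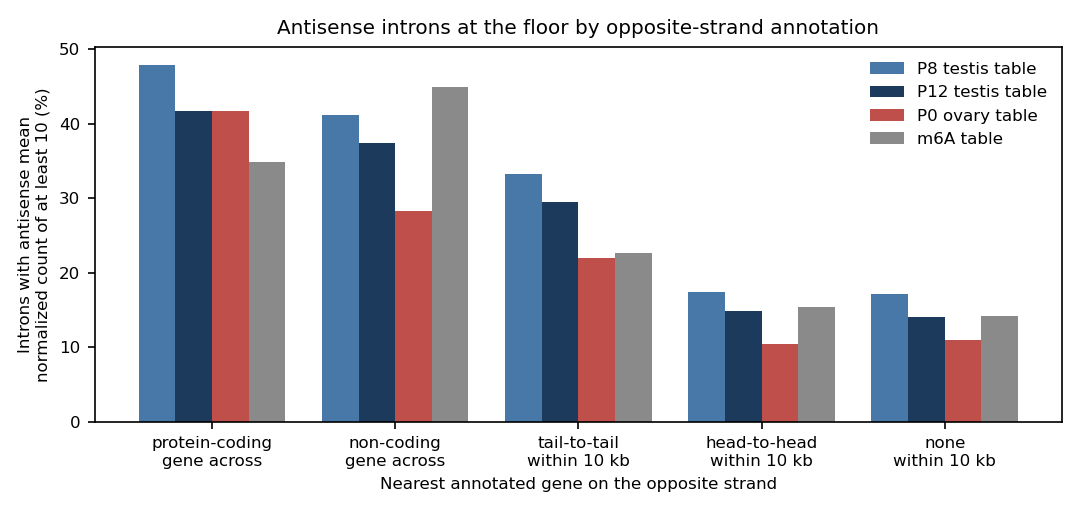
Share of listed antisense introns at or above the floor of 10 (y axis, %) by the nearest annotated gene on the opposite strand (x axis), with 1 bar per table. Bars are highest for hosts that a protein-coding or non-coding gene overlaps (labelled across) and lowest for head-to-head neighbours and for hosts with none within 10 kb, at 10.4% to 17.4%.

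Among loci known for antisense RNAs, the highest antisense count was that of Igf2r in ovary. Igf2r, a growth factor receptor expressed from the maternal allele, had an antisense intron count of 4534 in ovary, 71.6% of its intron count and the highest of all antisense introns there. In the other tables the same entry stood at 1.74 (P12), 0.81 (P8) and 4.22 (m6A), while the introns of Airn, the RNA that overlaps its 5′ part, were counted at 1551, 3112 and 519 (3941 in ovary). Airn was read in every table, and the part of the difference in counting in the low Igf2r entries was not tested. Xist, which silences 1 X chromosome in female cells, was counted at 22451 in its exons in ovary, where the antisense exon entry of Tsix, the gene across from it, stood at 3586. In testis Xist exons were counted at 74.4 (P12) and 62.0 (P8).

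Copg2, a coat protein gene that converges on imprinted Mest, had antisense counts of 682 in ovary, 169 in P12 testis and 209 in P8 testis, or 43.3%, 11.1% and 9.44% of its introns. Mest exons ranked in the same order, with 3204, 665 and 950. Kcnq1, a potassium channel gene, was read antisense at 135 (P12), 229 (P8) and 216 (ovary), and exons of Kcnq1ot1 at 5562, 7878 and 8305. Gnas, which encodes a G protein subunit, had 118, 133 and 504, with Nespas exons at 326, 277 and 190. Bace1, a protease gene with a known antisense RNA, was read mostly on the opposite strand in P12 testis (260, 63.6%) and P8 testis (317, 59.3%) and less so in ovary (186, 37.4%). None of these introns was called between genotypes: of the 27 listed genes with documented antisense RNAs, 12 reached the floor in P12 testis, 13 in ovary and 13 in P8 testis, with median log2 folds of 0.11, 0.02 and -0.04 in the authors' deposited tables. With 1.03, 0.697 and 0.064 percent of all antisense introns called, 0 among so few is near the background. The share of listed entries at the floor was 54.5% of this list in P12 testis and 59.1% in ovary, beside 24.7% and 21.5% of all listed antisense introns.

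**Figure D2:**
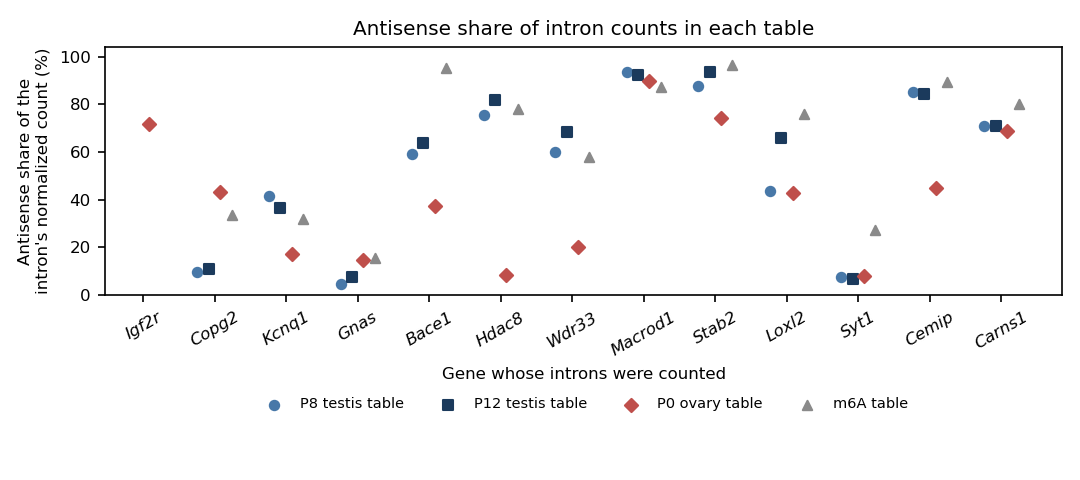
Antisense share of the intron's normalized count on both strands (y axis, %) for 13 genes (x axis), with 1 symbol per table and none where the antisense count was below 10. Macrod1 and Stab2 lie above 70% in every table, Syt1 lies near 7% in both testis tables, and Hdac8 lies at 81.9% in P12 testis and 8.26% in ovary.

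The strongest antisense introns of testis lay in genes of many kinds. Wdr33, a polyadenylation factor gene, led P12 testis with 3077 (68.2% of its introns) and stood at 4032 (59.9%) in P8 testis. Hdac8, a histone deacetylase gene overlapped by Gm32262, had 4039 in P8 testis (75.6% of its introns) and 2518 in P12 testis (81.9%), against 191 (8.26%) in ovary. Macrod1 had 2564 (92.1%) and Stab2, a scavenger receptor gene, 2527 (93.7%) in P12 testis. In these 4 genes the antisense strand held more of the intron count than the gene's own strand in both testis tables. In ovary the list after Igf2r held Mir8115 (3713), Sorbs2os (3559), Bc1 (3437), Fam196a (2253) and Filip1l (1705). Fam196a lies inside Dock1, whose own introns were counted at 8517, and Filip1l inside Cmss1, at 676, both in the arrangement that the ovary table lists as antisense and the testis tables do not. Sorbs2os likewise had an antisense intron entry in ovary alone, with no sense intron count there. The part of the difference in counting in the Sorbs2os entry was not tested. No antisense intron among the 6 highest of any total RNA table was called between genotypes. Of all antisense introns 1.03 percent were called in P12 testis and 0.697 percent in ovary. In P8 testis 0.064 percent were called against wild type and 0.0213 percent against the heterozygote, so none among 6 is near the background.

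In P12 testis, antisense introns changed at a few scattered genes, nearly all downward in the knockout. With adjusted p below 0.05, per the authors' deposited table, 43 of 4177 antisense introns were called (1.03 percent of those tested), 37 lower and 6 higher in the knockout. Sense introns were called at 1.02% (129 lower, 13 higher) and sense exons at 0.881% (122 lower, 15 higher), so the antisense share and its direction were near theirs, and the median fold over all antisense introns was 0.00 on the log2 scale. The called introns lay on 16 chromosomes, with mean counts of 13.1 to 626 and fold sizes of 0.63 to 2.63 (median 1.27). None of the 43 genes was called on its own strand, in introns or in exons. With 1.02% of sense introns and 0.881% of sense exons called, none among so few is near the background. Their sense intron folds were at most 0.56 in size and their sense exon folds at most 0.39. The antisense exon entry of the same gene had the same sign in 27 of the 27 genes where it reached the floor and was called in 4. It comes from the same libraries, and no such share over all antisense introns is given here, so it is no independent check. Because the floor is on the mean over both genotypes, an intron could enter through 1 genotype alone.

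Zfp27, a zinc finger gene, had the largest change, with an antisense mean count of 15.2 and a log2 fold of -2.63 (DESeq2 adjusted p = 2.62e-07) per the authors' deposited table. The same table put Zfp27 sense introns at -0.43 and sense exons at -0.16, neither called. Antisense introns of Tbc1d10c, a GTPase-activating protein gene, fell by 1.75, of Dpm1, a mannosyltransferase gene, by 1.72, of Adk, the adenosine kinase gene, by 1.70, and of Cpt1a, which encodes the enzyme of mitochondrial fatty acid import, by 1.64 in the authors' deposited table. Esrp1, a splicing regulator gene, fell by 1.58, Il2, the T cell cytokine gene, by 1.56, Gal, the galanin gene, by 1.55, and Vps33a, an endosomal sorting gene, by 1.55 in that deposited table of the authors. All 8 had mean counts of 13.2 to 32.3, so these large folds rest on few reads.

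Higher in the knockout were 6 antisense introns, and they included stronger ones. Arfgef3, a gene of the ARF exchange factor family, had an antisense mean of 107 and rose by 1.64 (adjusted p = 1.40e-05), whereas its sense introns stood at -0.09 and its sense exons at -0.39 in the authors' deposited table. Gm32926, whose promoter is printed above, diverges from the start of Arfgef3. Igf1, the gene of insulin-like growth factor 1, had an antisense mean of 98.3 and rose by 1.41 (adjusted p = 5.43e-05) per the authors' deposited table, with sense introns at 0.28 and exons at 0.13, and Igf1os overlaps its first part. The authors' deposited table also listed Atp13a5 (1.95, mean 28.8), Inadl (1.55, mean 18.5), Cwc27 (0.91, mean 108) and Zfp943 (0.63, mean 325) as higher. Atp13a5, an ATPase gene, is overlapped by the coding gene Plaat1.

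Among the well-covered antisense introns that fell, Adgrl1, the latrophilin 1 gene overlapped by Gm10644, had a mean of 161 and a log2 fold of -1.27 (adjusted p = 1.40e-05) per the authors' deposited table. Its sense introns stood at -0.12 and its sense exons at -0.27. Camta1, a calmodulin-binding transcription activator gene, had a mean of 247 and -1.11, and Carns1, the carnosine synthase gene, 101 and -1.20 in the authors' deposited table. Carns1 was read mainly antisense (70.7% of its intron count). The largest called antisense count was that of Iqch, with 626 and a fold of -0.76 (adjusted p = 0.000346) per the authors' deposited table, at 51.5% of its introns. St7 (mean 339) stood at -0.98 while its sense introns were at 0.01 and its sense exons at -0.04 in the authors' deposited table. Rabgap1 (mean 334, -0.96) and Pi4kb (471, -0.82) lie under the genes Strbp and Zfp687, whose own exons stood at -0.27 and -0.28 and were not called (adjusted p = 0.475 and 0.464 per the authors' deposited table).

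Some called antisense introns were neighbours. Within 500 kb of each other lay 4 pairs in P12 testis, Cpt1a with Gal, Carns1 with Tbc1d10c, Tdh with Xkr6 and Car12 with Aph1c. All 4 were lower in the knockout on both sides, where 37 of the 43 called antisense introns were lower. No share of such pairs over all tested antisense introns is given here. Cpt1a and Gal flank Mtl5, a testis gene whose exons had a log2 fold of -1.87 (adjusted p = 1.24e-32) per the authors' deposited table and which lies 3.12 kb and 2.09 kb from them. Cpt1a lies on the plus strand and Gal on the minus strand, so their antisense counts come from opposite strands. A part of Mtl5 in either fall was not tested. Of 179 neighbour relations within 100 kb of called antisense introns, 4 (2.23%) had a called exon, beside 0.881% of all sense exons: Mtl5 beside Cpt1a and beside Gal, Adad1 beside Il2, and Stxbp5l beside Polq. By annotation, 13 of 765 introns under a non-coding gene were called, 5 of 875 under a coding gene, and 11 of 698 with no opposite-strand gene within 10 kb.

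In P0 ovary, with 2 libraries in each group, most of the called antisense introns likewise had less signal without Ythdc2. The authors' deposited table called 23 of the 3301 (0.697 percent), 20 lower and 3 higher in the knockout, against 0.279% of sense introns (24 lower, 12 higher) and 0.548% of sense exons (65 lower, 15 higher). Fold sizes ran from 1.14 to 4.29 (median 2.08) at mean counts of 14.6 to 519. None of the 23 genes was called on its own strand, which is near the sense background of 0.279% and 0.548%. Sense intron folds of these genes were at most 0.22 in size and sense exon folds at most 0.29. Antisense exons, from the same libraries, had the same sign in 5 of the 5 genes at the floor, again without a share over all antisense introns.

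Syt1, the gene of the vesicle calcium sensor synaptotagmin 1, had the largest and most strongly covered change. Its antisense introns had a mean count of 519 and a log2 fold of -4.29 (adjusted p = 3.93e-65) per the authors' deposited table. Its sense introns, at a mean count of 6069, stood at 0.20 and its exons at 0.16, so the strands of this gene differed by far more than in any other called gene of the ovary. Gm36601, whose printed promoter lies 41.9 kb beyond the 3′ end of Syt1, overlaps its last 14.4 kb. Spef2, a sperm flagellum gene, had a mean of 138 and -2.85 (adjusted p = 2.17e-16) per the authors' deposited table and was read mostly antisense (67.3%). Hsd3b1, a steroidogenic enzyme gene, stood at -2.90 (mean 28.7) and its neighbour Hao2, 14.7 kb away, at -2.85 (mean 44.3) per the authors' deposited table. Both neighbours fell in the knockout, as did 20 of the 23 called antisense introns of the ovary.

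The other large ovary calls were Got2 at -2.54, Vta1 at -2.44, Fbxl17 at -2.25, Cib4 at -2.17, Pard3 at -2.12, Scn3b at -2.09 and Jakmip2 at -2.08 in the authors' deposited table. Their mean counts were 19.7 to 51.3. Fbxl17 and Pard3, an F-box and a cell polarity gene, had sense intron counts of 14174 and 13417, so the called antisense signal was a trace beside the gene's own transcript. Myo9a, an unconventional myosin gene overlapped by Gm20275, had a mean of 169 and a fold of -1.67 (adjusted p = 1.57e-06), and Rora, a nuclear receptor gene, 94.7 and -1.37 in the authors' deposited table. Higher in the knockout were Chpt1, a phospholipid synthesis gene, at 2.12 (mean 30.7, adjusted p = 0.000479), Tspan2 at 1.69 (mean 19.9) and Stab2 at 1.14 (mean 175, adjusted p = 0.0164) per the authors' deposited table. Chpt1 lies across from Sycp3, the gene of a synaptonemal complex protein, whose exons stood at -0.13 (adjusted p = 1.00). Stab2 is overlapped by Gm16271.

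**Figure D3:**
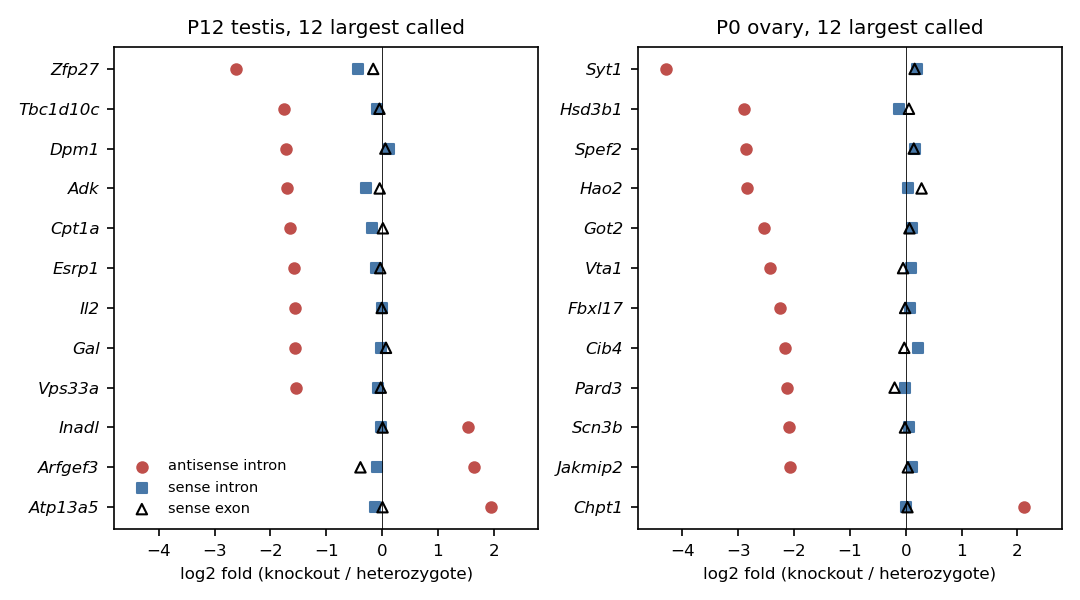
Log2 folds of knockout over heterozygote (x axis) for the 12 called antisense introns with the largest fold in P12 testis and in P0 ovary, with the antisense intron, sense intron and sense exon of each gene as separate symbols. Antisense symbols run from -2.63 to 1.95 in testis and from -4.29 to 2.12 in ovary, while the sense symbols of the same genes stay within 0.43 of 0.

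In P8 testis few antisense introns were called. Against the wild-type library the authors' deposited table called 3 of the 4688 (0.064 percent), 1 higher and 2 lower, against 0.0141% of sense introns and 0.0449% of sense exons. Against the heterozygous library the authors' deposited table called 1 (0.0213 percent), and between heterozygote and wild type it called 0 (0 percent). That last comparison sets 1 library against 1, and the table gives DESeq2 adjusted p only, so no count at an unadjusted p can be given. Both knockout comparisons share the same 2 knockout libraries.

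Loxl2, a lysyl oxidase gene that cross-links collagen, was called against both controls. Its antisense introns had a mean count of 147 and log2 folds of -4.23 against wild type (adjusted p = 7.78e-15) and -3.48 against the heterozygote (adjusted p = 4.17e-09) per the authors' deposited table. The heterozygote stood at -0.75 of the wild type (adjusted p = 1) per the authors' deposited table, and the Loxl2 sense introns and exons of the knockout at -0.13 and 0.06 against wild type. Entpd4, 242 kb from Loxl2, had a mean of 30.4 and folds of -2.61 against wild type (adjusted p = 0.00358) and -2.04 against the heterozygote, the latter not called, in the authors' deposited table. Serpinb2, a protease inhibitor gene read 99.3% antisense, had a mean of 72.1 and stood at 2.73 against wild type (adjusted p = 0.000568), 1.18 against the heterozygote and 1.55 for heterozygote over wild type in the authors' deposited table. For Serpinb2 the heterozygous library thus lay between the knockout and the wild type.

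The antisense introns called in 1 comparison were looked up in the others. Of the 37 antisense introns lower in P12 testis, 21 reached the floor in ovary, 7 with a fold below 0 and 14 above, and 29 in P8 testis, 13 below and 16 above 0 against wild type, with 0 called in either, where 0.697 and 0.064 percent of all antisense introns were called, so that no shared call is no result about them. The 6 that were higher in P12 testis all lay below 0 in P8 testis, by a median of -0.66 against wild type and -0.76 against the heterozygote in the authors' deposited tables, none called. Igf1 stood at -0.96 (mean 186, adjusted p = 1) and Arfgef3 at -0.66 in P8 testis against wild type in the authors' deposited table. Of the 20 lower in ovary, 8 reached the floor in P12 testis, 4 on each side of 0, and 10 in P8 testis, 5 on each side. The Syt1 antisense introns, which fell so far in ovary, stood at 0.15 in P12 testis (mean 37.9) and 0.40 in P8 testis against wild type (mean 92.1) per the authors' deposited tables. Loxl2 had antisense counts of 276 in P12 testis and 625 in ovary, with folds of 0.24 and -0.89, neither called, in the authors' deposited tables. Whether these folds differ between tissues or stages was not tested.

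Across all antisense introns, the fold carried almost no trace of the gene's own strand. In P12 testis 3664 genes had both intron entries at the floor, the antisense and sense folds had the same sign in 52.8% and Spearman's rho was 0.08, as a description across genes that share libraries. The ovary gave 53.3% and 0.06 over 2558 genes, and P8 testis against wild type 52.4% and 0.06 over 4117. At counts of at least 100 on both strands rho was 0.05 (n = 377), 0.15 (n = 220) and -0.02 (n = 499). Folds were smaller at the lowest counts: in P12 testis the SD of antisense folds was 0.225 below a mean of 10 and 0.343 between 10 and 50.

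**Figure D4:**
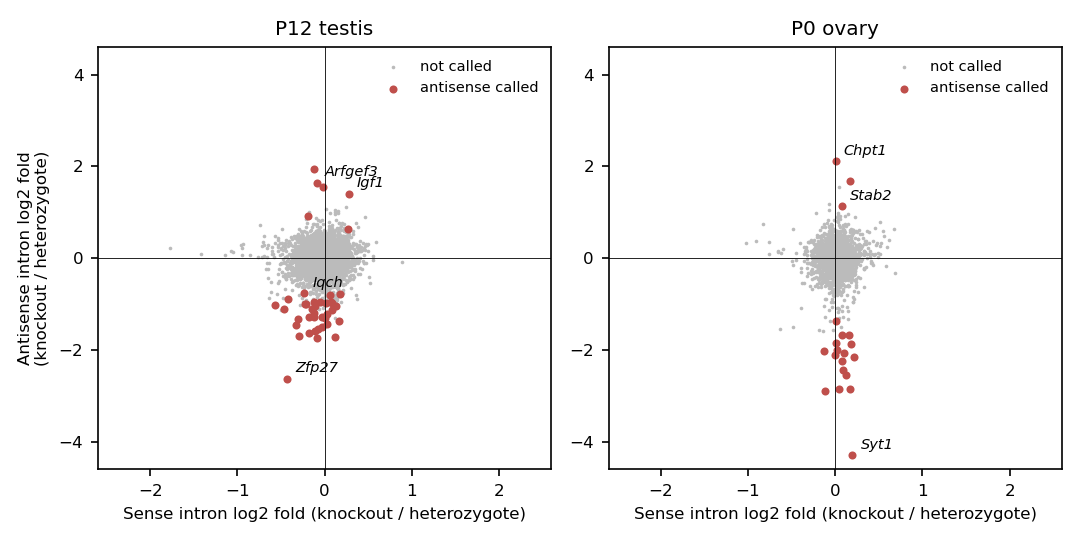
Antisense intron log2 fold (y axis) against sense intron log2 fold of the same gene (x axis), knockout over heterozygote, for genes with both at a mean count of at least 10, in P12 testis and P0 ovary. Called antisense introns spread along the vertical axis, down to -4.29 at Syt1, while their sense folds stay near 0.

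The fold was also set beside that of the gene on the other strand. Where an annotated gene overlapped the host and both reached the floor, rho between the antisense intron fold and the exon fold of that opposite gene was 0.34 in P12 testis (n = 776), 0.24 in ovary (n = 827) and 0.21 in P8 testis against wild type (n = 879). At counts of at least 100 these were 0.57 (n = 119), 0.19 (n = 152) and 0.33 (n = 166). Within these pairs, rho with the opposite gene's introns at the floor of 10 was 0.49 (n = 115), 0.47 (n = 138) and 0.26 (n = 163). Of the 119 in P12 testis, 82 (68.9%) had the same sign as the opposite gene, and rho with the host's own sense introns was 0.14 (n = 107). The ovary gave 0.13 (n = 86) and P8 testis against wild type 0.07 (n = 150) with the host's own sense introns at that floor. For m6A, at the floor of 10, rho was 0.10 with the opposite exons (n = 686). It was 0.21 both with the opposite introns (n = 577) and with the host's own sense introns (n = 628). These are correlations across genes with shared libraries, and the antisense entry of one gene can hold reads of the other.

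The single pairs below were chosen after their values were seen, and all have the same sign on both sides. Under Ticrr, a replication gene whose exons fell by 0.51 (adjusted p = 0.00604), the antisense introns of Kif7 stood at -0.62, and under Sycp3, whose exons fell by 0.66 (adjusted p = 0.00407), those of Chpt1 stood at -0.81 in P12 testis in the authors' deposited table. Gapdhs under Sbsn (exons -0.62) stood at -0.40, Fam13c under Phyhipl (-0.74) at -0.37, Zc3h14 under Eml5 (-0.53) at -0.11 and Ssh2 under Efcab5 (-0.68) at -0.08 in the authors' deposited table. All 6 opposite genes were called lower and all 6 antisense folds lay below 0, but none of the 6 antisense introns was called. Over all 776 pairs of P12 testis at the floor, 473 (61%) had the same sign. No such share over the pairs with called opposite exons is given here.

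**Figure D5:**
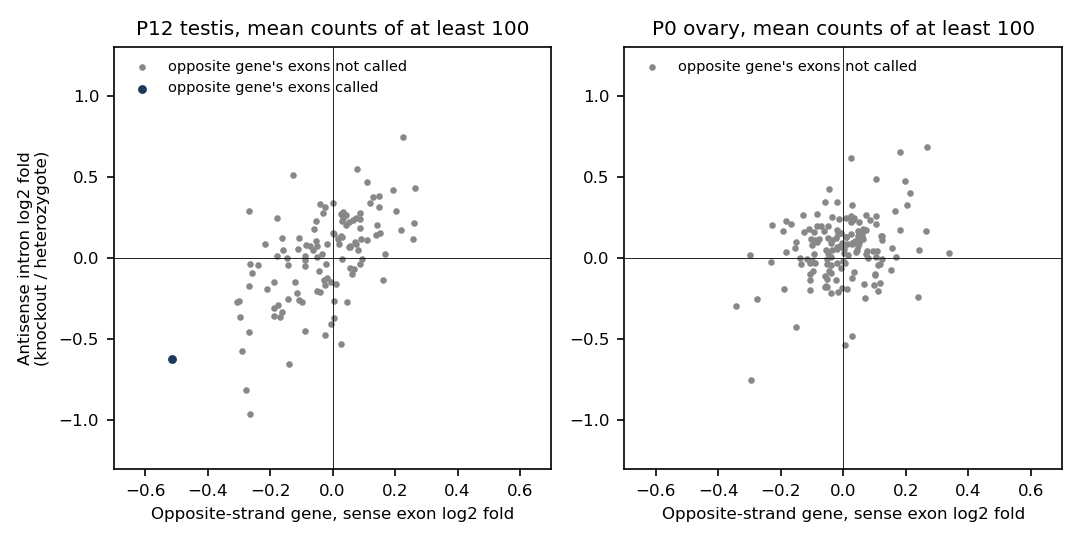
Antisense intron log2 fold (y axis) against the sense exon log2 fold of the annotated gene on the opposite strand (x axis), knockout over heterozygote, for pairs with mean counts of at least 100 in P12 testis (119 pairs) and P0 ovary (152 pairs). The P12 points rise from lower left to upper right, the ovary points less so, and Kif7 with Ticrr is the only pair whose opposite exons were called.

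Genes called in their sense exons were then read on the antisense strand of their introns. In P12 testis 122 genes had sense exons called lower, and 21 of them had an antisense intron at the floor. The sense exons of these 21 stood at a median log2 fold of -0.64, their sense introns at -0.60 and their antisense introns at 0.07, with 5 below and 16 above 0 and 0 called, a count from which nothing can be read at a background of 1.03 percent, in the authors' deposited table. The ovary gave 9 such genes of 65, with medians of -0.84, -0.21 and 0.01 in the authors' deposited table. Of the meiotic genes with an antisense intron entry, 7 of 38 (18.4%) reached the floor in P12 testis, where 24.7% of all listed antisense introns did. These 7 had a median log2 fold of 0.17 and 0 called in the authors' deposited table. Nothing can be read from that count at a background of 1.03 percent. Exons of 23 of 43 meiotic genes were called lower, beside 0.784% of all sense exons, in the authors' deposited table. Ythdc2 itself was below the floor on the antisense strand of its introns in every table (0.777 to 2.64). Its exons had a fold of -1.29 in P12 testis (adjusted p = 9.87e-25), -0.43 in ovary (adjusted p = 0.584) and -0.50 in P8 testis against wild type (adjusted p = 1) per the authors' deposited tables, and a count over all exons does not check a lesion of exon 7.

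The m6A immunoprecipitate of wild-type P8 testis differed from its input at many more antisense introns, though with 1 library each this comparison has no replicate check. The authors' deposited table called 240 of 2404 antisense introns with an adjusted p (9.98 percent), 150 higher and 90 lower in the immunoprecipitate. Sense introns were called at 8.87% and sense exons at 53.2%. At matched mean counts of 100 to 1000, 32.8% of antisense introns, 11.7% of sense introns and 56.6% of sense exons were called. Another 2026 antisense introns at the floor had no adjusted p. Of the 240, 31 were also called in sense introns and 128 in sense exons. Of the 120 with antisense exons at the floor, 109 had the same sign there, in the same libraries and without a share over all antisense introns. An annotated opposite-strand gene overlapped the host of 106 of the 240. Among the 2404 tested, a coding gene did so for 479 and a non-coding gene for 575. The share among the called was thus near that among all tested.

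Some of the largest enrichments lay at small entries, though over all antisense introns the spread of m6A folds rose with the count. The SD of these folds was 0.929 at means of 10 to 50 and 1.19 at 100 and above. Tomm6os stood at 4.07 (mean 59.0), Prrg2 at 3.73, Lor at 3.28, Wapl at 3.19, Ddost at 3.10 and Rdx at 3.06 in the authors' deposited table. Depletion was largest at Senp8, at -4.50 (mean 35.7), followed by Fat3, a cadherin gene, at -4.20 (mean 275, adjusted p = 8.90e-21), Alg13 at -4.00 and Knop1 at -3.92 (mean 187, adjusted p = 4.65e-10) per the authors' deposited table. Synpr, with a mean of 117, was among the stronger enriched antisense introns at 2.65 (adjusted p = 4.33e-05), and Dgkg, with 335, among the depleted at -2.93 (adjusted p = 1.72e-08) per the authors' deposited table. Of the listed genes with known antisense RNAs, Bace1 (mean 390, 95.2% antisense) rose by 1.60 (adjusted p = 0.000259) and Gnas (114) by 1.31 (adjusted p = 0.0274) per the authors' deposited table. Sycp3 antisense introns fell by 1.74 (adjusted p = 0.00585) in that deposited table of the authors, the only one called of 4 meiotic genes at the floor. The list of genes with known antisense RNAs had 11 at the floor. With 9.98 percent of all tested antisense introns called, nothing can be read from calls among so few. Il1rapl1, a neuronal receptor gene, had the highest antisense count of the m6A table (4502, 95.5%). That count is a mean over all 10 m6A libraries, immunoprecipitates and inputs of P8, P12 and P20 testis, and not a P8 value. In the total RNA tables, which are on other scales, it stood at 3.54 to 30.2, and this difference was not tested.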

How the data were processed

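Total RNA libraries of testis and ovary and m6A libraries of testis were sequenced. Per the file headers, the authors deposited, for each gene's exons and introns on each strand, a mean normalized count over all libraries of the table (a signal without values per library), a log2 fold change and an adjusted p-value. Per the submitters' processing notes DESeq2, mm10 and, for ovary, cutadapt were used. Not given in the sources used here: aligner, counter, annotation, versions and the use of strand in counting. The P8 and P12 headers name their folds after immunoprecipitation and input, which was read as knockout over control. The adjusted p-values in the deposited tables appear adjusted per feature type, since the lowest mean count with one differs (in P12 testis 4.48 for antisense introns, 9.97 for sense introns and 6.47 for sense exons), where adjustment over all features had been assumed. For m6A, 490 and 499 antisense introns with a mean above 0 lack a fold at P12 and P20, and 0 at P8, so only P8 folds were used. Bind-N-Seq files hold 8 columns per library that match no label and were not used.

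Antisense introns with a mean of at least 10 were joined by symbol to the sense introns and exons of the gene. Called means an adjusted p below 0.05 as deposited. No model was refitted. Hosts were placed with RefSeq genes of GRCm38.p6 (28096 of 49939 with a strand): 4160 of the P12, 3283 of the ovary, 4667 of the P8 and 4414 of the m6A antisense introns matched, and 3315, 2579, 3696 and 3461 had a strand. Named are the called antisense introns (the 12 with the largest fold beyond 12), the 6 with the highest count, the 6 with the largest fold at a mean of at least 100, members of the list of genes with documented antisense RNAs, and the genes opposite to them; Ythdc2; further genes were chosen after their values were seen. The members and lists were chosen with earlier results of these data known. Python 3.11.15, pandas 2.3.3, numpy 2.4.6 and scipy 1.17.1 were used, and the counting steps were tested on simulated data. Alternatives were the floor, the p threshold and leaving out introns under an opposite-strand gene. Depth is known only as the sum of mean counts, which limits antisense introns near the floor most.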

Additional observations from a re-analysis of the deposited data

How the results depend on the processing

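Counts of called antisense introns in P12 testis were 23 at a mean of at least 50 and 25 without introns under an annotated opposite-strand gene, and in ovary 6 and 13. The P8 count against wild type was 5 at an adjusted p below 0.1, and the m6A count 134 without introns under an opposite-strand gene. The share of antisense introns with the sign of their sense introns was 55.8% (mean of at least 50) and 58.2% (at least 100) in ovary, 50.6% and 46.9% in P8 against wild type, 51.6% and 51.1% against the heterozygote, and 50.7% and 48.7% for m6A, and 50.1% at least 100 for P8 heterozygote over wild type. The median antisense percent was 25.2 (antisense mean of at least 50) and 1.41 (all introns with at least 10 over both strands) in P12 testis, 46.3 and 0.950 in ovary, 22.3 and 1.23 in P8 testis, and 43.1 and 5.78 in the m6A table, since these settings choose other introns. The other 49 values moved by less than the limits set, though the median log2 fold of P8 testis against wild type, 0.0021, changed sign to -0.012 (mean of at least 50) and -0.040 (at least 100), and that against the heterozygote, 0.017, to -0.00067 (at least 100). Fewer introns are tested at higher floors and without opposite-strand genes. An adjustment over antisense introns alone was not run, because the tables used hold no unadjusted p. Leaving out libraries was not possible without values per library. No paired analysis was possible because the tables used hold comparisons over groups and no values per library.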
